A study of Mus musculus with 9 samples.

Results

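Ppargc1a and Ppargc1b encode PGC-1α and PGC-1β, coactivators that bind PPARγ, the other PPARs, the estrogen-related receptors and further transcription factors and recruit the machinery that opens chromatin and starts transcription. Neither protein binds DNA itself. In brown adipose tissue PGC-1α is induced by cold through β-adrenergic signaling and cAMP and drives thermogenesis and mitochondrial biogenesis, and PGC-1β shares many of its mitochondrial targets. PPARγ, a nuclear receptor, is held on DNA together with its partner RXR, and the reads here therefore show where PPARγ was bound on the genes of its own coactivators.

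The peaks described are all PPARγ ChIP-sequencing peaks whose midpoint lay between 51.43 and 51.6 Mb of chromosome 5, around Ppargc1a, or between 61.27 and 61.43 Mb of chromosome 18, around Ppargc1b, in mouse genome mm10 (GRCm38). These are 63 of the 66066 peaks of the series, 24 at Ppargc1a and 39 at Ppargc1b, and the rule uses position only. ChIP-sequencing counts the DNA fragments that an antibody, here 8 μg against PPARγ, pulls down with its protein. Interscapular brown adipose tissue (iBAT) came from wild-type male C57BL/6J mice of 10 weeks, fed chow and kept at 22 °C, without any genetic change or treatment. Tissue was collected at Zeitgeber Time (ZT) 0, 3, 6, 9, 12, 15, 18 and 21 h, where ZT0 is the onset of a light phase of 12 h, and pooled at each time point, from 8 mice according to the ChIP method, whereas 4 mice are given elsewhere in the methods. Each time point is 1 library, so that differences between pools cannot be separated from differences between times, and an input library of ZT12 was not analysed here.

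The 8 libraries held 29572225 to 34264812 reads in peaks. Values below are TMM-normalized reads in a peak, scaled to the median library of 31733719 reads, and a level per kb is that number divided by the length of the peak. The tissue label was checked by peaks nearest to marker genes. Of 8 brown adipocyte genes 7 had a peak, with no peak nearest to Prdm16, as did 5 of 5 adipocyte genes, 4 of 4 endothelial genes, 2 of 5 macrophage genes and 2 of 5 skeletal muscle genes. The summed reads per gene ranged from 0 to 15835 for the brown adipocyte genes, from 6861 to 21983 for the adipocyte genes, from 446 to 2571 for the endothelial genes, from 0 to 347 for the macrophage genes and from 0 to 886 for the muscle genes. Cell composition cannot be told apart from binding per cell in whole tissue. The strongest 10% of all peaks held 48.05% of reads in peaks in the library of ZT6 and 44.2% in that of ZT15.

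Oscillation was tested by JTK-cycle, a rank test of the 8 values against cosine curves of 21 and 24 h that reports the estimated peak time as LAG. Its P value is corrected for 15 combinations of period and phase, and with 8 values its lowest steps are 0.000744, 0.00595, 0.026 and 0.0826. With 1 library left out the lowest steps are 0.00595, 0.0417, 0.161 and 0.452. The same number of values out of order then gives a higher P value. A call at 0.026 can thus be lost through the smaller number of values alone. The threshold for calling a peak oscillating was an adjusted P value of 0.05. After a further Benjamini-Hochberg correction over all peaks the smallest JTK value was 0.0968, so that 0 of 66066 peaks passed at that stricter level and each call is provisional. A second test fitted a 24-h cosine with the quasi-likelihood model of edgeR and Benjamini-Hochberg adjustment over all peaks, taking departures from the cosine as the spread.

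Ppargc1a lies on the reverse strand and has 2 curated RefSeq start sites. The coding transcript starts at 51553921 and spans 99.7 kb to 51454249. A curated non-coding transcript starts 13804 bp further upstream, at 51567725, where coding transcripts are also predicted. These positions are called the coding start and the upstream start. By nearest start site all 24 peaks belong to Ppargc1a, of which 13 were centred in the gene body, 1 downstream of it, 2 between the start sites and 6 upstream of both, while 2 covered a start site.

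Ppargc1a sequences are shown for the peaks at its start sites and in its upstream region, where its strongest binding lay. They were read from RefSeq's GRCm38.p6, the same build, and are printed 5′ to 3′ in lower case with the searched motif in capitals. The best match in each peak was sought to a DR1 element, the repeat bound by the PPARγ dimer, written here as 2 copies of AGGTCA in direct repeat with any 1 base between them, on both strands and counting mismatches over the 12 fixed bases. The peak over the coding start held a DR1 with 1 mismatch (chr5:51549654-51549714, reverse strand), and the most upstream peak held one with 2 mismatches (chr5:51596166-51596226, forward strand):

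Coding-start peak DR1: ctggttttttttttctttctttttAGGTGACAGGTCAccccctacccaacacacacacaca

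Most upstream peak DR1: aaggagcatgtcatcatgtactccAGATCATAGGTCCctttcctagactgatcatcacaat

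The DR1 of the most upstream peak lay 396 bp from the peak's centre and that of the coding-start peak 1364 bp from it. A match at least as good was present in 34.7% of the 3639 peaks of similar length (within 10%) for the most upstream peak, and in 18.2% of 209 peaks for the much longer coding-start peak. The other 4 named peaks at Ppargc1a had 3 mismatches at best, which 85.9% to 97.9% of peaks of similar length matched or bettered. A peak between the start sites (chr5:51555570-51556529), not among the named ones, held a DR1 with 1 mismatch. Such a match was present in 4.2% of the 7232 peaks of similar length. Over all members, a DR1 of at most 2 mismatches occurred in 6 of 24 peaks at Ppargc1a and in 12 of 39 at Ppargc1b, against 23.6% of all peaks of any length. At most 1 mismatch was found in 2 of 24 and in 2 of 39, against 4.99% of all peaks. The members were longer, with medians of 979.5 bp at Ppargc1a and 1270 bp at Ppargc1b, against 813 bp over all peaks. A DR1 of at most 2 mismatches was present in 18.8% of peaks as long as a member of 794 bp. It was present in 86.5% of those as long as the member of 10073 bp. These DR1 counts are therefore not matched for length.

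The cAMP response element TGACGTCA, a palindrome bound by CREB and ATF2, occurred in 2 of the 24 Ppargc1a peaks and in none of the 39 Ppargc1b peaks. Of all peaks of any length 1.65% held it. Its shares in peaks as long as the members add up to 0.48 peaks at Ppargc1a and 0.86 at Ppargc1b. The element is shown because cAMP is the signal by which cold induces Ppargc1a. A copy began 84 bases before the coding start (chr5:51553987-51554016, reverse strand), and a copy lay 624 bp from the centre of the most upstream peak (chr5:51595147-51595202, forward strand):

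Coding-start cAMP response element: ctgccttggagTGACGTCAggagtttgtgc

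Most upstream peak cAMP response element: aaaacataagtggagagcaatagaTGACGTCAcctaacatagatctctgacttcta

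The element was present in 1.55% of 32851 RefSeq promoters over the 250 bases before the start, in 6.7% of peaks as long as the coding-start peak and in 2.36% of peaks as long as the most upstream peak. The 250 bases before the upstream start (chr5:51567726-51567975, reverse strand) are shown because reads at that start varied more over the day than at any other member:

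Upstream start: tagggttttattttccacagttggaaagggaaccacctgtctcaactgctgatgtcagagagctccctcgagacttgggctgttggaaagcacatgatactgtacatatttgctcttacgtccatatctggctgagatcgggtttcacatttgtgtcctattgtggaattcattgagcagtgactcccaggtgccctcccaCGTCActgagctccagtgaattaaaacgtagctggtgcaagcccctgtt

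In this stretch only the shorter core TGACG, which is contained in the full element, was found, 1 time and on the opposite strand, where it reads CGTCA, and 17.8% of promoters hold it on either strand. The E-box CACGTG, the D-box TTATGTAA and the C/EBP motif TTGCGCAA were not found in it and occur in 6.02%, 0.819% and 0.164% of promoters. Over whole member peaks the E-box occurred in 5 at Ppargc1a and 5 at Ppargc1b, the D-box in 2 and 2, and the C/EBP motif in none at Ppargc1a and 1 at Ppargc1b, against 16.9%, 6.5% and 0.459% of all peaks of any length. Peaks as long as the members hold these motifs at shares that add up, over the 24 and the 39 members, to 4.74 and 9.97 peaks for the E-box, 1.88 and 3.93 for the D-box and 0.142 and 0.287 for the C/EBP motif. These matches describe letters and not bound sites.

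At Ppargc1a, PPARγ binding was concentrated in few peaks and was highest in the light phase at the upstream region. The 3 strongest peaks held 61.2% of the summed reads, and 18 of 24 peaks were highest at ZT3 or ZT6 (29.3% of all peaks). JTK-cycle called 2 of 24 peaks oscillating, or 8.33%, against 11.6% of all 66066 peaks. Both called peaks lay upstream of both start sites. The cosine test called 4 of 24 peaks, or 16.7%, against 13.4% of all peaks. Of these 4 peaks 1 passed both tests, an overlap that was not counted over all peaks. The JTK count was 4 without the library of ZT0 or ZT18, 1 without ZT6, 5 without ZT12 and 6 without ZT15, where 13%, 11.5%, 11.8%, 13.7% and 11.2% of all peaks were called. The lowest value fell on ZT0 in 12 peaks and on ZT18 in 7 (12.2% and 10.3% of all peaks).

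The most upstream peak (chr5:51594864-51596735, 41.9 kb upstream of the coding start and 28.1 kb upstream of the upstream start) was the member with the lowest JTK P value. In order of time, from ZT0 to ZT21, it held 2058, 2375, 3370, 2165, 2010, 1505, 1588 and 2128 normalized reads. The library of ZT6 thus stood above all others and those of ZT15 and ZT18 were lowest. The highest value was 2.24 times the lowest (95% counting interval 2.11 to 2.38), a ratio larger than in 94.4% of peaks with a mean of at least 100 reads. JTK-cycle gave an adjusted P value of 0.000744 with a LAG of 6 h, and the edgeR cosine an adjusted P value of 0.00744. The fitted log2 peak-to-trough difference was 0.82 ± 0.21 (SE of the fit over 8 libraries). This call held with all 5 normalizations. With cyclic loess, which evens out differences between strong and weak peaks, the ratio was 1.96 and the JTK adjusted P value 0.00595.

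The neighbouring peak (chr5:51590895-51593037, 24.2 kb upstream of the upstream start) had the highest level per length of all 63 members, at 1347 normalized reads per kb, compared with a median of 268 over all peaks. From ZT0 to ZT21 the 8 libraries gave 2594, 3125, 3918, 3095, 3195, 2416, 2254 and 2497 normalized reads. Values were high from ZT3 to ZT12 and low from ZT15 to ZT0, with a ratio of 1.74. The cosine test called it, with an adjusted P value of 0.00369 and a log2 peak-to-trough difference of 0.65 ± 0.12 (SE), whereas JTK-cycle gave 0.0826 and did not, and it gave 0.044 with a period of 24 h only. The JTK adjusted P value was 0.00595 without the library of ZT12, 0.161 without ZT0, ZT3 or ZT9 and 0.452 without ZT6, ZT15, ZT18 or ZT21. The next upstream peak toward the gene (chr5:51584171-51585789) held 894, 999, 1038, 941, 853, 893, 777 and 895 normalized reads, a ratio of 1.33 with the highest value at ZT6 and the lowest at ZT18. Its JTK adjusted P value was 0.026 with TMM, but it passed with 2 of 5 normalizations only, was at 0.161 without the library of ZT0, ZT3, ZT6 or ZT9, and its adjusted P value in the cosine test was 0.145. The remaining 3 upstream peaks had means of 84.5 to 277 reads and passed neither test.

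The start sites of Ppargc1a were covered by separate peaks, with ratios of 2.72 at the upstream start and 1.31 at the coding start. The peak over the upstream start (chr5:51567318-51569187) held 406, 880, 1088, 783, 591, 399, 444 and 582 normalized reads in the libraries from ZT0 to ZT21. Reads were thus high from ZT3 to ZT9 and low from ZT15 to ZT0. The ratio of 2.72 (counting interval 2.43 to 3.05) was the largest of the 63 members and larger than in 98.2% of peaks with a mean of at least 100 reads. The cosine test gave an adjusted P value of 0.00776 and a log2 peak-to-trough difference of 1.20 ± 0.35 (SE), while the JTK adjusted P value of 0.0826 missed the threshold. The JTK adjusted P value was 0.0417 without the library of ZT0, ZT12 or ZT18, 0.161 without ZT3, ZT9, ZT15 or ZT21, 0.452 without ZT6 and 0.113 with a period of 24 h only.

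The peak over the coding start (chr5:51547679-51554418), the strongest at Ppargc1a with a mean of 2949 reads, held 2527, 3250, 3306.5, 2938, 2989, 2874, 2688 and 3021 normalized reads in the libraries from ZT0 to ZT21. It was lowest at ZT0 and highest at ZT6, and the ratio was 1.31, but the highest value moved to ZT3 after division by library totals only and to ZT21 with cyclic loess (ratio 1.23). Neither JTK-cycle (adjusted P value 0.915) nor the edgeR cosine (adjusted P value 0.345) called it, and its log2 peak-to-trough difference was 0.20 ± 0.12 (SE). At 6740 bp this peak is long, and positions within it are not resolved by the counts.

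Counts of both start sites can be compared within each library, where a scaling factor common to all peaks cancels. A difference between libraries in the contrast of strong and weak peaks does not cancel. Reads over the upstream start, as a share of those over the coding start, were 16.1%, 27.1%, 32.9%, 26.7%, 19.8%, 13.9%, 16.5% and 19.3% from ZT0 to ZT21. The counting interval at ZT6, 30.8% to 35.2%, lay above that of every other library. For the most upstream peak the share was 52.4% at ZT15 and 102% at ZT6 (97.2% to 107%). These shares were calculated after the values of the peaks had been seen and were not tested, and the intervals cover counting error only. The strongest peaks of the series held most of the reads at ZT6 (48.05%) and least at ZT15 (44.2%). Mean reads per kb were 1148 in the most upstream peak, 438 over the coding start and 346 over the upstream start. Cyclic loess took the ratio from 2.24 to 1.96 in the most upstream peak and from 2.72 to 2.68 at the upstream start. The part of this difference between libraries in the shares of both peaks was not tested.

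**Figure D1:**
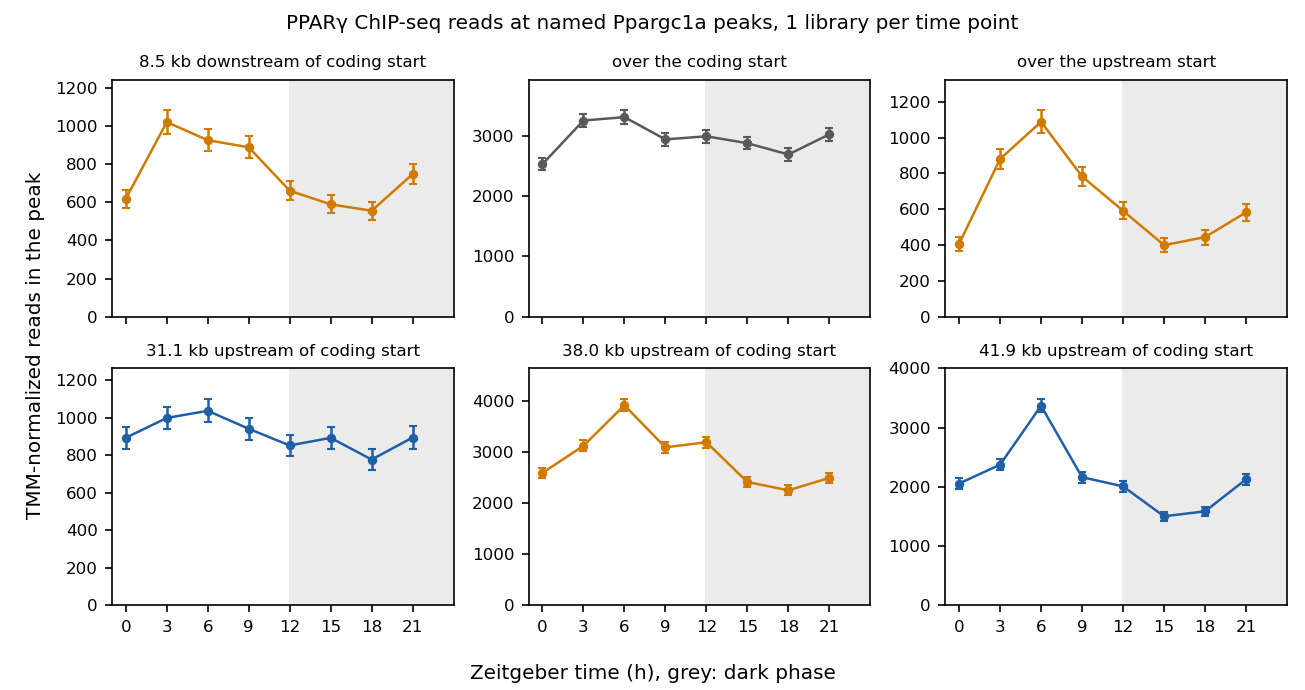
Normalized reads (vertical axis, from 0) against Zeitgeber time in h (horizontal axis) for the 6 named Ppargc1a peaks, each point 1 library with its 95% counting interval; blue marks peaks called by JTK-cycle, orange those called by the cosine test only, and grey those called by neither. The peak over the upstream start went from 399 to 1088 reads, and the peak over the coding start from 2527 to 3306.5.

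**Figure D2:**
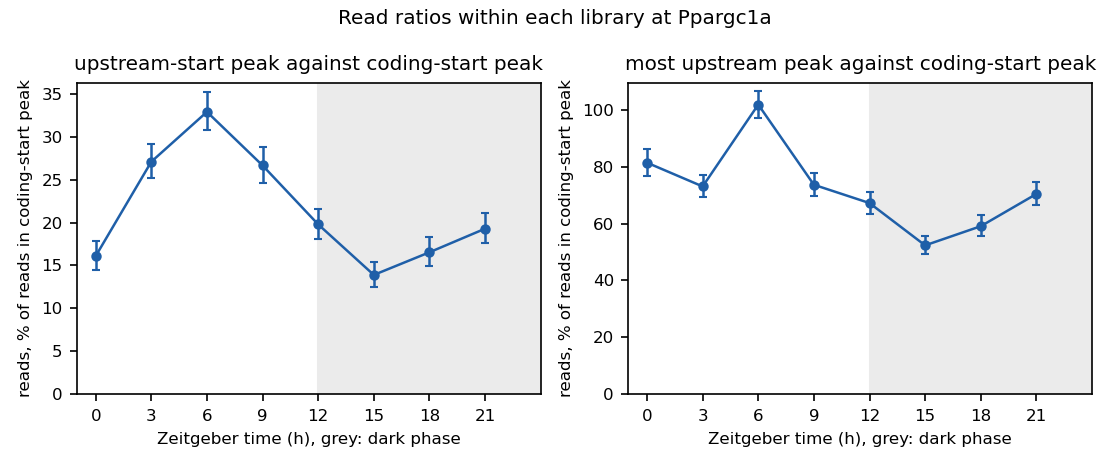
Reads of the upstream-start peak (left) and of the most upstream peak (right) as a percentage of reads in the coding-start peak of the same library (vertical axis) against Zeitgeber time in h (horizontal axis), with 95% counting intervals. Both shares were highest at ZT6, at 32.9% and 102%, and lowest at ZT15, at 13.9% and 52.4%.

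Within the Ppargc1a gene body the 13 peaks had ratios of 1.24 to 2.01 and means of 49.9 to 750 reads, and none was called by JTK-cycle. The strongest of them (chr5:51543586-51547205, intron 2, 8.53 kb downstream of the coding start) held 617, 1019, 924, 887, 660, 588, 555 and 747 normalized reads from ZT0 to ZT21. It was high from ZT3 to ZT9 and was the only gene-body peak called by the cosine test (adjusted P value 0.0146, log2 difference 0.75 ± 0.20 SE), with a JTK adjusted P value of 0.0826 that was 0.0417 without the library of ZT0 or ZT3, 0.161 without any other and 0.113 with a period of 24 h only. A further peak of intron 2 (chr5:51500506-51503377) was nearly flat, with 552, 670, 668, 620, 646, 683, 610 and 595 reads. Between the start sites, the 2 peaks had ratios of 1.62 and 1.76 and passed neither test. The single downstream peak (chr5:51431601-51432374) was highest at ZT15 and lowest at ZT0, with 130, 150, 172, 167, 187, 202, 152 and 134 reads and a JTK adjusted P value of 0.0826.

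Ppargc1b also lies on the reverse strand, from 61400412 to 61291445 on chromosome 18, and hosts Mir378a in its first intron, a microRNA gene transcribed from the same strand. Ppargc1b has 2 curated transcripts from the same start, of 13 and 12 exons, and introns are numbered here on that of 13 exons, so that intron 2 lies within intron 1 of the other. By nearest start site, 29 of the 39 peaks would be assigned to Mir378a, 5 to Ppargc1b and 5 to Pde6a, the neighbouring gene for a rod phosphodiesterase subunit, so that most of this window is missed when peaks are looked up under the symbol Ppargc1b. Of the 39 peaks, 31 were centred in the gene body, 5 lay upstream, 1 covered the start and 2 lay downstream, within Pde6a. The 39 peaks covered 81288 bp, compared with 34576 bp at Ppargc1a.

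At Ppargc1b, binding was spread over more peaks, most of them with small ratios between the highest and lowest time point. The 3 strongest peaks held 42.1% of the reads, and 25 of 39 peaks were highest at ZT3 or ZT6 (29.3% of all peaks). The median ratio was 1.40 compared with 1.49 at Ppargc1a and 1.52 over all peaks. These groups differ in depth, with median means of 248, 144 and 223 reads. The median ratio was 1.46 over all peaks with a mean of at least 100 reads and 1.33 in the strongest 10%. JTK-cycle called 6 of 39 peaks, or 15.4% (11.6% of all peaks), and the cosine test 7, or 17.9% (13.4% of all peaks). Both tests called 3 peaks, an overlap that was not counted over all peaks. The JTK count depended on the processing: it was 3 after division by library totals only and 1 with cyclic loess (12.3% and 11% of all peaks), and it was 3 without the library of ZT6 or ZT21 and 2 without that of ZT18 (11.8%, 11.3% and 11.5% of all peaks). The cosine count was 4 after division by library totals only or without ZT6 (13.5% and 6.48% of all peaks), and 3 without ZT15 or ZT18 (5.65% and 4.64%). The highest value fell on ZT3 in 20 peaks (11.9% of all peaks). The lowest fell on ZT18 in 13, on ZT21 in 11 and on ZT0 in 10 (10.3%, 6.94% and 12.2% of all peaks).

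The peak over the start of Ppargc1b (chr18:61392180-61402252), which also covers Mir378a, was the strongest of all members with a mean of 6554 reads over 10073 bp. Its normalized reads from ZT0 to ZT21 were 6211, 7213, 8185, 6518, 6990, 5928, 5258 and 6129. It was highest at ZT6 and lowest at ZT18, with a ratio of 1.56. JTK-cycle (adjusted P value 0.026, LAG 6 h) and the edgeR cosine (adjusted P value 0.0164, log2 difference 0.45 ± 0.11 SE) both called it. With cyclic loess, however, the ratio was 1.20 and the JTK adjusted P value was 1. The JTK call was also lost, at 0.161, when the library of ZT3, ZT6, ZT15, ZT18 or ZT21 was left out. For a call at 0.026 the smaller number of values alone can have this effect.

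A peak of intron 1 (chr18:61383327-61388507, 14.5 kb downstream of the start) had the lowest JTK P value at Ppargc1b. In order of time, from ZT0 to ZT21, it held 3354, 3436, 3218, 2864, 2843, 2183, 2479 and 2914 normalized reads. It was highest at ZT0 and ZT3 and lowest at ZT15, with a ratio of 1.57, a LAG of 3 h, a JTK adjusted P value of 0.00595 and a cosine adjusted P value of 0.0074. The call held with 4 of 5 normalizations, and with cyclic loess its JTK adjusted P value was 0.212. Whether its phase differs from that of the start peak was not tested.

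Upstream of Ppargc1b, 2 adjoining peaks had the highest levels per length in this window. The more distant one (chr18:61422959-61425261, 23.7 kb upstream, 978 reads per kb) held 1785, 2702, 2900, 2625, 2402, 1948, 1711 and 1952 normalized reads from ZT0 to ZT21. It was high from ZT3 to ZT12, with a ratio of 1.69, a JTK adjusted P value of 0.026, a cosine adjusted P value of 0.00291 and a log2 difference of 0.73 ± 0.13 (SE). Its JTK call was lost after division by library totals only (0.0826) and with cyclic loess (0.212), and, at 0.161, when the library of ZT6, ZT12, ZT18 or ZT21 was left out. The nearer one (chr18:61420995-61422727, 910 reads per kb), named here after its values were seen, held 1376, 1948, 1825, 1662, 1592, 1446, 1300 and 1470 reads, with a cosine adjusted P value of 0.031 and a JTK adjusted P value of 0.0826.

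Within the Ppargc1b gene body, a peak of intron 2 (chr18:61373540-61374741, 26.3 kb downstream of the start) had the largest ratio of the window, 1.90. Its normalized reads from ZT0 to ZT21 were 515, 827, 793, 691, 616, 519, 436 and 471. Reads fell from ZT3 to ZT18, and the cosine test called it (adjusted P value 0.00317, log2 difference 0.87 ± 0.13 SE) whereas JTK-cycle gave 0.0826, or 0.044 with a period of 24 h only. With both periods JTK-cycle gave 0.0417 without the library of ZT3, 0.161 without ZT0, ZT6, ZT9 or ZT15 and 0.452 without ZT12, ZT18 or ZT21. The broadest peak of the gene body (chr18:61356865-61366331, 9467 bp) held 3033, 3285, 3162, 3208, 2890, 2656, 2626 and 2596 reads and was higher from ZT0 to ZT12 than later, with a cosine adjusted P value of 0.0254 and a JTK adjusted P value of 0.212. A peak in the last exon (chr18:61293737-61295207) held 213, 256, 313, 272, 206, 215, 175 and 216 reads, a ratio of 1.79, with a cosine adjusted P value of 0.0439 and a JTK adjusted P value of 0.212. The JTK value was 0.0417 without the library of ZT12 or ZT15, 0.161 without ZT0, 0.452 without ZT3, ZT9, ZT18 or ZT21 and 1 without ZT6, and among normalizations it went from 0.0826 with cyclic loess to 0.467 after division by library totals only.

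The 3 other peaks called by JTK-cycle lay in intron 2 and had means of 127 to 244 reads, next to a median of 223 over all peaks. Each had a JTK adjusted P value of 0.026, and none was called by the cosine test. The first (chr18:61326975-61328244) held 150, 157, 154, 204, 197, 152, 152 and 141 normalized reads, stood out at ZT9 and ZT12, and passed with 3 of 5 normalizations. The second (chr18:61328838-61329618) held 118, 131, 146, 143, 137, 121, 104 and 118 reads and kept its call with all 5 normalizations, although the counting intervals of its highest and lowest values overlapped. The third (chr18:61342124-61342947) held 237, 236, 248, 252, 252, 261, 252 and 212 reads, again with overlapping intervals, and passed with 2 of 5 normalizations. Left-out libraries also ended the calls of the first (ZT0, ZT9, ZT12, ZT18 or ZT21) and the third (ZT0, ZT6, ZT9 or ZT18), each at 0.161, and the third was at 0.113 with a period of 24 h only. The flattest of all members was a peak in Pde6a (chr18:61271625-61273623), with 1007, 1063, 1120, 1085, 1087, 1045, 1051 and 1042 reads and a ratio of 1.11.

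The remaining gene-body and upstream peaks of Ppargc1b that were called by neither test included several broad ones. In intron 2, peaks at chr18:61330171-61333536 (1183, 1161, 1110, 1158, 1115, 1289, 1130 and 1050 reads), chr18:61348379-61351880 (984, 1199, 1033, 1058, 997, 1024, 1016 and 909 reads) and chr18:61366519-61371714 (1556, 1699, 1601, 1501, 1608, 1446, 1437 and 1396 reads) had ratios of 1.23, 1.32 and 1.22. Nearer the start, chr18:61379770-61383064 held 1040, 1137, 995, 878, 930, 872, 856 and 1077 reads, a ratio of 1.33, and was highest at ZT3. Of the 39 peaks, 29 were called by neither test, as were 19 of 24 at Ppargc1a. Over all peaks JTK-cycle called 11.6% and the cosine test 13.4%, and the share called by neither was not counted. The counting intervals of the highest and lowest value did not overlap in 27 of 39 peaks and in 17 of 24, whereas this was so in 83.9% of all peaks.

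**Figure D3:**
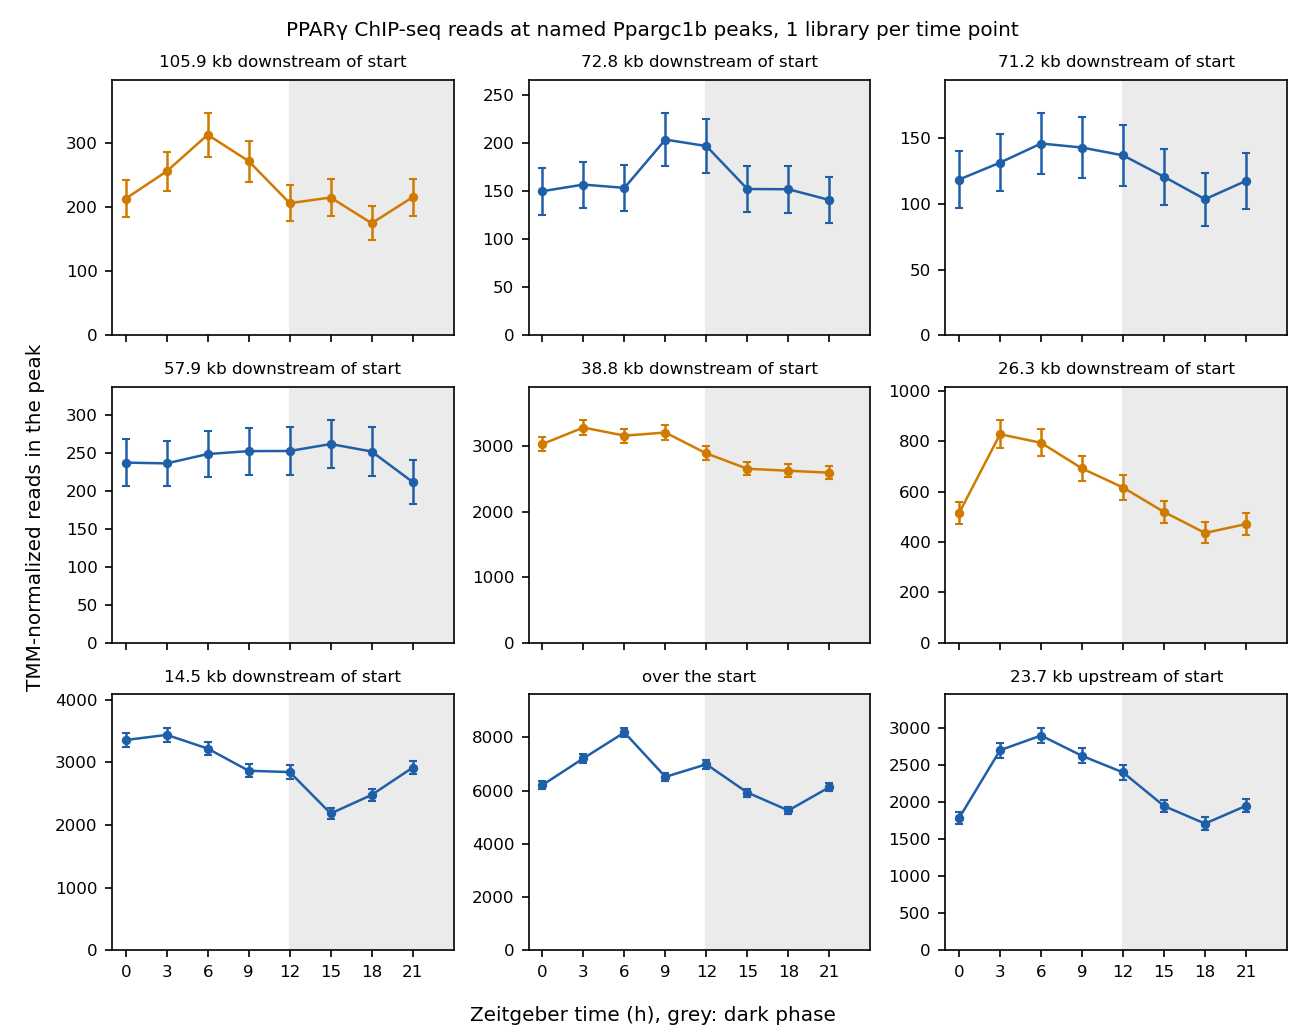
Normalized reads (vertical axis, from 0) against Zeitgeber time in h (horizontal axis) for the 9 named Ppargc1b peaks, each point 1 library with its 95% counting interval; blue marks peaks called by JTK-cycle and orange those called by the cosine test only. The peak over the start went from 5258 to 8185 reads, and the 3 peaks of intron 2 called by JTK-cycle stayed below 300 reads.

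**Figure D4:**
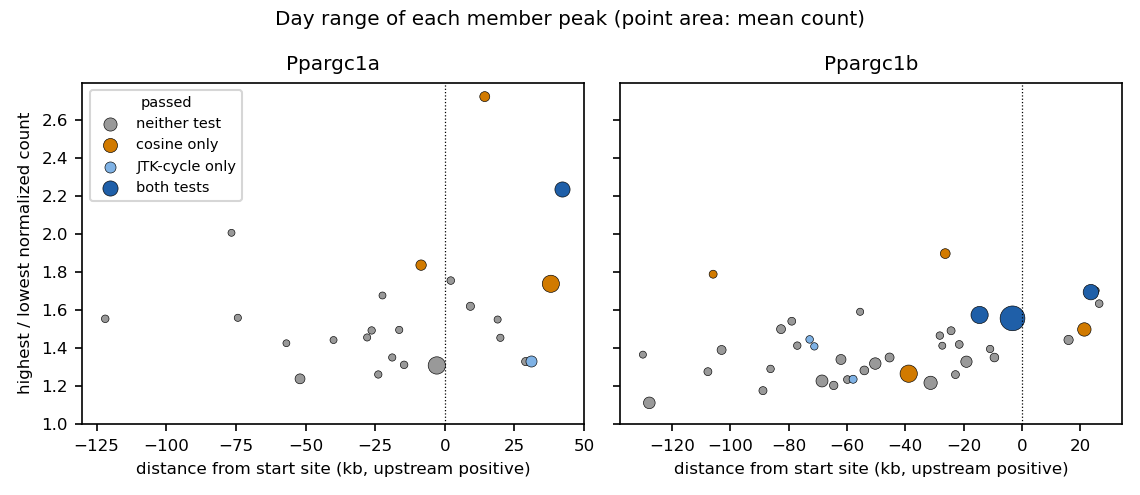
Ratio of highest to lowest normalized count (vertical axis) against distance of the peak centre from the coding start in kb (horizontal axis, upstream positive) for all 63 members, with point area growing with mean count and color giving the test passed. The ratios above 2.2 belong to 2 Ppargc1a peaks, over the upstream start (2.72) and 28.1 kb further upstream (2.24).

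Summed over each gene, normalized reads at Ppargc1a ranged from 10883 at ZT18 to 16793 at ZT6, a ratio of 1.54, and at Ppargc1b from 25694 at ZT18 to 33231 at ZT3, a ratio of 1.29. Per kb covered, the mean levels were 378 at Ppargc1a and 362 at Ppargc1b. Of the 63 members, 43 (68.3%) were highest at ZT3 or ZT6, compared with 29.3% of all peaks. In the strongest 10% of all peaks 51.5% were highest at ZT3 or ZT6, their summed normalized reads went from 0.927 of their mean at ZT18 to 1.09 at ZT6, JTK-cycle called 22% and the cosine test 29.2%. This strongest 10% includes 10 members, of which 9 were highest at ZT3 or ZT6. The part of this difference between libraries in the members' values was not tested.

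Genes with the most similar course over the 8 libraries were sought by Pearson's r of log2 summed reads over peaks nearest to each gene with a mean sum of at least 500. They were set against the summed reads of the 24 Ppargc1a and of the 39 Ppargc1b members, which include the peaks nearest to Mir378a and Pde6a, and these genes were left out of the search for Ppargc1b. For Ppargc1a these were Gm31072 (r = 0.988), 4930555B11Rik (0.985), Dgkd (0.984), Cdc14a (0.983) and Sag (0.98), among 10718 genes. For Ppargc1b they were Sbno2 (r = 0.992), Mir5625 (0.976), Gm20751 (0.975), Mir193b (0.974) and Neat1 (0.974), among 10716 genes. The sums of Ppargc1a and Ppargc1b correlated with r = 0.908. All of these values share the same 8 libraries and are descriptions only.

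Peaks nearest to genes that work with PGC-1 were counted in 3 lists. The partners were transcription factors and receptors that PGC-1 coactivates, together with the related coactivator gene Pprc1. Of these, 19 of 21 genes had a peak (not Gabpa and Prdm16). JTK-cycle called 29 of 227 peaks (12.8%, next to 11.6% of all peaks) and the cosine test 30 (13.2%, next to 13.4%). At Ppara, a receptor of fatty acid oxidation, the peak with the lowest P value (chr15:85731656-85738046) ranged from 4276 at ZT18 to 7769 at ZT6 (JTK adjusted P value 0.000744). At Esrrg, an estrogen-related receptor of mitochondrial genes, it (chr1:187796287-187797513) ranged from 361 at ZT15 to 688 at ZT6 (0.000744). At Foxo1, a factor of the fasting response, it (chr3:52322029-52323901) ranged from 254 at ZT6 to 477 at ZT15 (0.00595).

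For the regulators, enzymes, receptors, coactivators and corepressors that act on PGC-1 or its genes, all 24 genes had a peak, and JTK-cycle called 16 of 170 peaks (9.41%, next to 11.6% of all peaks) and the cosine test 18 (10.6%, next to 13.4%). At the corepressor gene Ncor1 the leading peak (chr11:62431262-62432819) ranged from 297 at ZT3 to 571 at ZT15 (JTK adjusted P value 0.000744). At Lpin1, which encodes lipin 1, a phosphatidate phosphatase that also coactivates PPARα, it (chr12:16605545-16607240) ranged from 405 at ZT3 to 659 at ZT12 (0.00595). At Adrb1, the β1-adrenergic receptor, it (chr19:56735634-56737358) ranged from 461 at ZT0 to 654 at ZT9 (0.00595).

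The targets were mainly genes of thermogenesis, fatty acid oxidation and mitochondria, with others such as Vegfa and Fndc5. A peak was found for 25 of 26 genes (not Tfb2m). JTK-cycle called 26 of 120 peaks (21.7%) and the cosine test 29 (24.2%), next to 11.6% and 13.4% of all peaks. The called peaks belonged to 8 genes, among them Ucp1, Dio2, Pdk4, Idh3a and Gk with 4 each. At Pdk4, the kinase that restrains pyruvate oxidation, the leading peak (chr6:5479392-5483714) ranged from 524 at ZT15 to 1440 at ZT6, a ratio of 2.75 (JTK adjusted P value 0.000744). At Ucp1, the uncoupling protein of brown fat, it (chr8:83260401-83261275) ranged from 280 at ZT12 to 422 at ZT3 (0.000744) but was not called by the cosine test (adjusted P value 0.162). At Acadm, medium-chain acyl-CoA dehydrogenase, it (chr3:153956169-153957210) ranged from 99.9 at ZT3 to 368 at ZT15 (0.00595). No set test was made, and the lists share libraries with the members.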

How the data were processed

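PPARγ ChIP-sequencing was performed on pooled iBAT, 1 library per time point. The authors mapped reads to mm10 with BWA, called peaks with MACS2, retained those that were significant in 6 or more libraries and used HTSeq to count the reads in each. The deposited values are these raw counts, in whole numbers. Handling of duplicate reads is not given in the sources used here. Normalization (TMM) and the cosine test used edgeR 4.0.16 in R 4.3.3, and JTK-cycle was rewritten in Python 3.11.15 with its exact null distribution. Its rule for ties was chosen after comparison with the study's supplementary table, and its calls can differ from those of the original program. On 5000 simulated peaks with 200 oscillating at a relative amplitude of 0.5, JTK-cycle recovered 167 and called 95 of 4800 flat peaks, and the cosine test recovered 200 and called 6. JTK-cycle put the relative amplitude at 4.42% to 26.8% in the members it called and at no more than 46.2% in any member. The simulated amplitude was thus larger than that of every member, and recovery of weaker oscillations was not simulated. Wilson and ratio intervals at 95% cover counting error only. SEs of cosine fits are from least squares on log2 values.

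Peaks were placed by their centre on curated RefSeq transcripts of GRCm38.p6, in which 66059 of 66066 peaks lie. Named peaks were, per gene, those at a start site, the 3 strongest, the 3 with the largest ratio at a mean of at least 100 reads and those called by JTK-cycle. Members, lists and rules were chosen with earlier results of these data known. Alternatives were other normalizations (library totals, upper quartile, DESeq2 1.42.0, cyclic loess in limma 3.58.1), a 24-h period only, DESeq2's likelihood ratio test, a filter at 100 reads, start sites within 10 kb and each library left out.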

Additional observations from a re-analysis of the deposited data

How the results depend on the processing

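With JTK-cycle, the count at Ppargc1a (2 with TMM) was 1 with upper-quartile factors and 4 with a period of 24 h only (11.7% and 15% of all peaks), and ranged from 1 to 6 when each library was left out. At Ppargc1b (6 with TMM) it was 3 after division by library totals only and 1 with cyclic loess (12.3% and 11%). When each library was left out it ranged from 2 without ZT18 to 9 without ZT3 (11.5% and 16.4% of all peaks). In the cosine test the count at Ppargc1b (7) was 4 after division by library totals only and ranged from 3 to 7 when each library was left out, and that at Ppargc1a (4) ranged from 3 to 4. Over all peaks the cosine count of 8842 ranged from 3067 without the library of ZT18 to 11203 without that of ZT3, and was 4280 without ZT6, 5609 without ZT9, 5694 without ZT12 and 3730 without ZT15, while the JTK count ranged from 7396 to 10802. The count in the list of regulators was 25 of 170 with a period of 24 h only (15% of all peaks) and ranged from 17 to 26 when each library was left out, the latter without ZT3 (16.4% of all peaks). With start sites within 10 kb only, fewer peaks remained and the counts were 7 of 67 for the partners, 8 of 56 for the regulators and 10 of 54 for the targets, next to 10.5% of all 24474 such peaks. Among the 15 named members, cyclic loess took the JTK call from 6. In the members called by JTK-cycle, the highest value stayed at its time point or moved to a neighbouring one under the other normalizations. The most upstream Ppargc1a peak kept its JTK call in all 13 alternatives. So did the weak Ppargc1b peak at chr18:61328838-61329618, which the cosine test did not call. Why these calls changed was not tested, and with a library left out the coarser steps of JTK-cycle alone can end a call. No paired analysis was possible because each time point has 1 library.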
